A study of Mus musculus with 16 samples.

Results

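The CD5 effect common to both lineages of naive T cells was measured as the mean of the CD5hi minus CD5lo change in CD8+ cells and the same change in CD4+ cells, over all 16 libraries of the series. The groups were CD8+CD5hi, CD8+CD5lo, CD4+CD5hi and CD4+CD5lo cells, with 4 biological replicates each. All came from lymph nodes of C57BL/6 mice with no treatment named, and all were gated as lacking CD25, with high CD62L and low CD44. Within each lineage, the third of cells with most surface CD5 (CD5hi) and the third at the other end (CD5lo) were sorted and their RNA was sequenced in bulk. The groups are fractions of one continuous distribution, with no perturbation of CD5. The age and sex of the mice, and whether a replicate was 1 animal or a pool, are not stated in the labels. Of 24421 genes in the table, 13554 had enough counts to test. Of these, 1711 passed in the average effect, and 590 of them changed in the same direction in both lineages and by a similar size, the smaller log2 change being at least 0.7 times the larger.

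CD5 is a scavenger receptor family protein of T cells and some B cells that associates with the T cell receptor (TCR) and restrains its signals. Its surface level is set in the thymus, in proportion to how strongly a cell's TCR recognises self peptide on MHC molecules, and is kept by continued contact with self ligands. High CD5 on a naive T cell is therefore commonly used as a marker of strong self-recognition in both CD4+ cells, which see MHC class II, and CD8+ cells, which see MHC class I. The series title names resting NF-kB signalling. NF-kB is a transcription factor family held in the cytoplasm by IkB proteins and released by TCR signals through a complex that holds the paracaspase MALT1.

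Libraries held 71447252 to 93418385 counts, and levels below are counts per 1000000 (CPM) after scaling for library composition. The 7 defining T cell markers in the table summed to 4412 to 5768 CPM in CD8 libraries and 2854 to 3376 CPM in CD4 libraries, with 0 of them at 0. In 3 libraries, CD8 CD5hi replicate 4, CD8 CD5lo replicate 3 and CD4 CD5lo replicate 3, the 14 B cell markers in the table summed to 985, 606 and 385 CPM, against 10.9 to 71.4 CPM in the other 13. Of those 3, CD8 CD5hi replicate 4 and CD8 CD5lo replicate 3 also held Cd4 RNA, at 62.2 and 27.2 CPM. Cd4 was at 0.415 to 2.51 CPM in the other CD8 libraries. Myeloid markers summed to at most 87.1 CPM and natural killer cell markers to at most 97.7 CPM in any library. Values without those 3 libraries are given beside the results they bear on and, for the main counts, at the end. In bulk RNA, fewer cells of a type and less RNA per cell cannot be told apart, which holds for every level below.

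Averaged over both lineages, 1024 genes (7.55% of those tested) were higher in CD5hi cells and 687 (5.07%) were lower, in edgeR's quasi-likelihood test at an adjusted p under 0.05. Of the genes called, 1682 of 1711 had the same direction in both lineages, and 29 did not. Over all genes tested, 67.7% had the same direction, and a call in the mean of both changes by itself favours it. Similar size was met by 331 of the higher genes (2.44% of all tested) and 259 of the lower ones (1.91%). These 590 genes (4.35% of all tested) had average log2 changes from 0.12 to 5.39 on the higher side and from -3.37 to -0.12 on the lower side. Their median average change was 0.56 among the higher genes and -0.42 among the lower ones, against -0.01 over all genes tested. Changes of at least 2-fold were found in 94 of the 331 and 37 of the 259. The mean of 2 lineage changes keeps its sign when 1 lineage does not move, so a call in the average does not by itself place a change in both lineages. Of the 1711 genes, 314 were called in each lineage on its own, 771 in CD8 cells only, 204 in CD4 cells only and 422 in neither. Among the 590 of similar size, 226 were called in each lineage and 259 in neither. CD5hi and CD5lo libraries did not overlap in either lineage for 185 of the 331 and 117 of the 259, and over all genes tested this held for 2.65% with CD5hi above and 1.56% with CD5hi below.

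Where the sizes differed, the change in CD8 cells was more often the larger one. Among called genes outside the similar-size set, CD8 was larger in 493 higher and 317 lower genes and CD4 in 200 and 111. Genes called in CD4 cells, 2.68% of those tested on the higher and 1.4% on the lower side, had the same sign in CD8 cells in 342 of 363 higher and 168 of 190 lower cases, with a median CD8 change of 0.663 and 0.77 times the CD4 change. Genes called in CD8 cells, 5.95% and 3.51% of those tested, had the same sign in CD4 cells in 726 of 806 and 441 of 476 cases, with a median CD4 change of 0.438 and 0.496 times the CD8 change. Over all genes tested, 67.7% had the same sign in both lineages. Genes chosen for a call in 1 lineage tend to be large there, which by itself lowers both ratios. The difference between the lineages' effects was itself called in 42 genes (0.31% of those tested), of which 29 were among the 1711 and 0 among the 590 in edgeR. At an unadjusted p under 0.05 it differed in 8 of the 590. The size rule picks genes whose lineage changes are close, which by itself makes such calls rare among the 590. A difference that misses the threshold does not show equal effects, and so intervals of the difference are given below. Across the 13554 genes the CD5 effects in CD8 and CD4 cells had a Pearson r of 0.453, as a description over genes that share libraries and are not independent. Genes just inside the size rule were Tbc1d31, with a ratio of 0.7004, and P4ha2, with 0.7025. Just outside were Spire1, with 0.6991, and Kcnh3, with 0.6988.

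**Figure D1:**
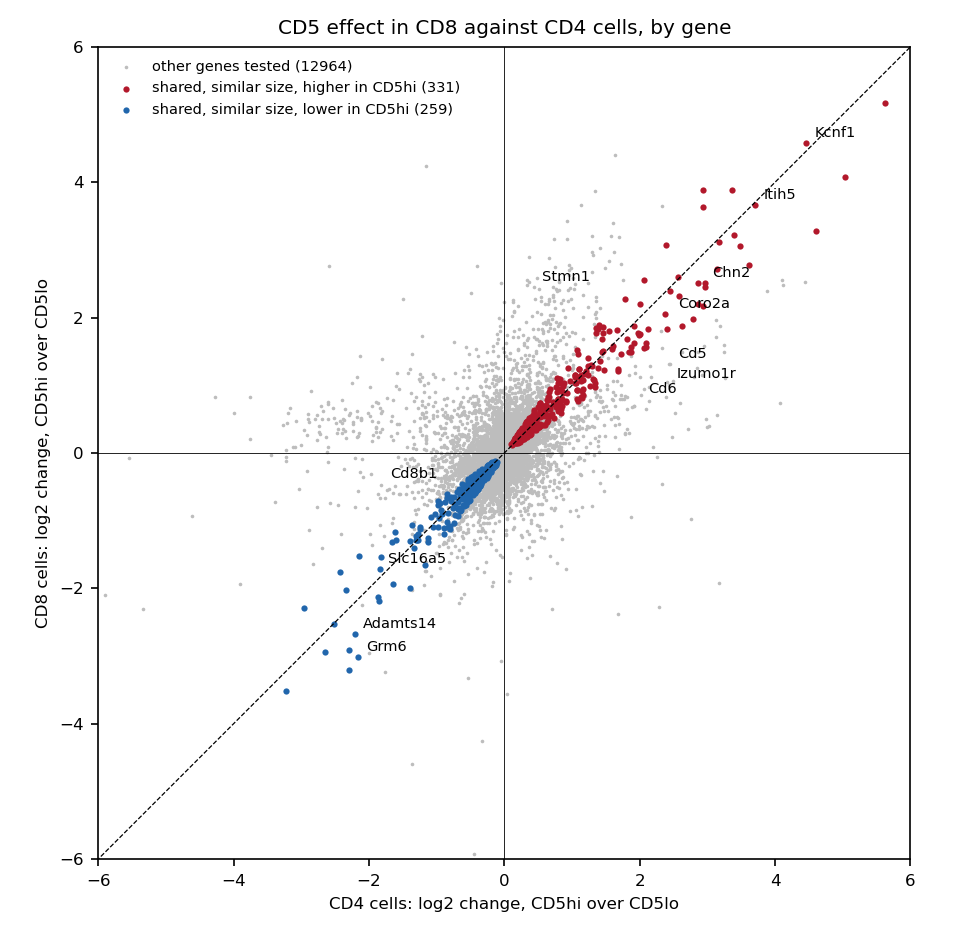
Log2 change of CD5hi over CD5lo in CD8 cells (vertical axis) against that in CD4 cells (horizontal axis), with 1 point per tested gene and the dashed line marking equal changes. Red and blue points are the 331 higher and 259 lower genes of similar size, grey points the other genes tested, and 1 gene lies outside the plotted range of 6 either way. Kcnf1 and Itih5 lie near the line at the upper right, Adamts14 near it at the lower left, and Cd5 and Cd6 lie below it.

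Kcnf1 and Itih5 had the largest rises among the genes of similar size chosen for display, those that averaged 5 CPM or more and whose CD5hi and CD5lo libraries stood apart in both lineages. Kcnf1 encodes a silent subunit that joins other voltage-gated potassium channels, and Itih5 a heavy chain of the inter-alpha-trypsin inhibitor family, which binds hyaluronan in the matrix. Their promoters are shown because these genes had the largest rises among those chosen for display. Each runs from 250 bases before to 50 after the gene's start, 5′ to 3′ on the gene's strand, in RefSeq's table on GRCm38.p6. The Kcnf1 window is chr12:17176839-17177138 on the minus strand and the Itih5 window chr2:10153293-10153592 on the plus strand. Neither holds any of 4 motifs searched on both strands, so no letters are in capitals. The motifs were the NF-kB core GGGNNTTTC, the AP-1 site TGANTCA, the Egr site GCGTGGGCG and the Nr4a site AAAGGTCA. Of all 32851 promoters in the table, 4.36%, 7.81%, 0.612% and 1.51% hold them, in that order.
Kcnf1 promoter: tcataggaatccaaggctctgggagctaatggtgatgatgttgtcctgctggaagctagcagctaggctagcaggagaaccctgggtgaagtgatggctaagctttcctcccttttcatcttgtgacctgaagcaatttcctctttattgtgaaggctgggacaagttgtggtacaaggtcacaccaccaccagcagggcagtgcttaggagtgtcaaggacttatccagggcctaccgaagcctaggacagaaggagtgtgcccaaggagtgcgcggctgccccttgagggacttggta
Itih5 promoter: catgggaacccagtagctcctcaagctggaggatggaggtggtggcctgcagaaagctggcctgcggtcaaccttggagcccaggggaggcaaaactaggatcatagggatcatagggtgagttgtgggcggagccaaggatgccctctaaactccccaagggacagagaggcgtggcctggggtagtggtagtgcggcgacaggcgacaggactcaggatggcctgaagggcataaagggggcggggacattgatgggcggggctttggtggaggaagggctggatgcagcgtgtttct

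In CD8 cells, Kcnf1 was at 5.62, 3.66, 0.761 and 4.9 CPM in CD5hi libraries 1 to 4, against 0.264, 0.187, 0.111 and 0.0646 CPM in CD5lo. In CD4 cells it was at 43.3, 25, 11.9 and 34.1 CPM in CD5hi, against 1.86, 1.41, 0.496 and 1.43 CPM in CD5lo. No CD5lo library reached the lowest CD5hi library of its lineage, as the choice for display required. CD8 CD5hi replicate 3 lay well below the other 3 of its group. Kcnf1 rose by 4.52 ± 0.42 (edgeR adjusted p = 3.73e-06) on the log2 scale (± SE throughout), 4.58 in CD8 and 4.46 in CD4 cells. Itih5 was at 6.13, 9.49, 6.73 and 4.61 CPM in CD8 CD5hi, against 0.317, 0.375, 1.34 and 0.151 CPM in CD8 CD5lo. In CD4 cells it was at 28.4, 37.7, 28.4 and 29.3 CPM in CD5hi, against 2.12, 2.66, 2.43 and 2.27 CPM in CD5lo. The highest CD8 CD5lo value was that of replicate 3, a library with B cell markers. This value lay below all CD8 CD5hi libraries, as the same choice required. Itih5 rose by 3.68 ± 0.28 (edgeR adjusted p = 6.3e-07), 3.66 in CD8 and 3.71 in CD4 cells, and without the 3 libraries by 4.24.

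Several of the shared rises encode surface receptors of T cells. Tnfrsf9 (4-1BB), a costimulatory receptor that TCR signals induce, was at 12.9, 15.9, 12.6 and 12.9 CPM in CD8 CD5hi, against 3.42, 3.34, 4.08 and 2.95 CPM in CD8 CD5lo. In CD4 cells it was at 22.8, 18.4, 16 and 20.2 CPM in CD5hi, against 2.64, 2.51, 3.29 and 2.72 CPM in CD5lo. The gap between the groups in each lineage was wider than the range within them. Tnfrsf9 rose by 2.39 ± 0.09 (edgeR adjusted p = 2.14e-10), with a size ratio of 0.709, close to the limit of 0.7, and a CD8 minus CD4 difference of -0.81 (95% interval -1.21 to -0.42). Cd200, a membrane glycoprotein whose receptor inhibits myeloid cells, was at 13.3, 12.9, 9.82 and 11.5 CPM in CD8 CD5hi, against 4.17, 3.22, 5.21 and 2.83 CPM in CD8 CD5lo, and at 31.8, 25, 21.9 and 24.1 CPM in CD4 CD5hi, against 6.71, 7.96, 6.56 and 6.13 CPM in CD4 CD5lo. It rose by 1.77 ± 0.12 (edgeR adjusted p = 1.31e-07). Every CD5hi library lay above every CD5lo library of its lineage, as the choice for display required. Adora2a, an adenosine receptor that raises cyclic AMP and restrains T cells, was at 26.8, 24.7, 22.7 and 19.4 CPM in CD8 CD5hi, against 11.2, 10.4, 10.1 and 8.2 CPM in CD8 CD5lo, and at 25.1, 21.8, 23.4 and 26.9 CPM in CD4 CD5hi, against 8.29, 7.89, 9.78 and 9.04 CPM in CD4 CD5lo. Its rise of 1.35 ± 0.08 (edgeR adjusted p = 3.4e-08) was 1.23 in CD8 and 1.47 in CD4 cells. Ptgfrn, an immunoglobulin superfamily partner of tetraspanins, averaged 18.1 ± 4.04 CPM in CD8 CD5hi and 5.31 ± 1.63 in CD8 CD5lo (SD, n = 4 each), and 30.7 ± 3.27 CPM in CD4 CD5hi and 11.2 ± 1.9 in CD4 CD5lo. It rose by 1.61 ± 0.14. A related protein, Cd101, which dampens T cell activation, rose by 1.12 ± 0.09 and was named after its values were seen.

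Other shared rises concern the cytoskeleton, metabolism and transcription. Chn2, a GTPase-activating protein for Rac, was at 13.4, 16.4, 14.5 and 11 CPM in CD8 CD5hi, against 1.93, 2.59, 2.67 and 2.49 CPM in CD8 CD5lo, and at 18, 13.5, 17.1 and 11.1 CPM in CD4 CD5hi, against 1.71, 1.85, 2.97 and 1.19 CPM in CD4 CD5lo. Chn2 rose by 2.73 ± 0.16 (edgeR adjusted p = 3.4e-08), and 9.5% of its exonic bases overlap another tested gene, 9130019P16Rik. Coro2a, an actin-binding coronin, was at 26.7, 50.4, 38.2 and 40.1 CPM in CD8 CD5hi, against 5.31, 6.96, 10.6 and 6.76 CPM in CD8 CD5lo, and at 5.19, 7.9, 7.7 and 14.4 CPM in CD4 CD5hi, against 0.737, 1.1, 3.49 and 1.12 CPM in CD4 CD5lo. Coro2a rose by 2.42 ± 0.28 (edgeR adjusted p = 3.86e-05), and the highest CD5lo values were those of the replicates 3, both libraries with B cell markers. Without the 3 libraries its rise was 2.89. Litaf, an endosomal membrane protein, followed the same pattern, rising by 1.81 ± 0.28 and by 2.42 without them. Acot7, an acyl-CoA thioesterase, rose by 1.66 ± 0.15. Ndrg1, a stress-responsive gene linked to T cell anergy in mice, averaged 47.4 ± 10.3 CPM in CD8 CD5hi and 13.3 ± 1.54 in CD8 CD5lo, and 29.8 ± 2.15 CPM in CD4 CD5hi and 11.3 ± 0.887 in CD4 CD5lo. It rose by 1.62 ± 0.09 (edgeR adjusted p = 2.36e-08).

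Eomes, a T-box factor of memory and virtual memory CD8 cells, was far higher in CD8 than in CD4 cells at both CD5 levels, with a CD5 change of similar size. It was at 159, 115, 100.1 and 84.7 CPM in CD8 CD5hi, against 57.3, 42.3, 39.6 and 33.7 CPM in CD8 CD5lo, and at 5.46, 3.84, 3.93 and 4.95 CPM in CD4 CD5hi, against 2.07, 1.49, 2.64 and 1.51 CPM in CD4 CD5lo. CD5hi and CD5lo libraries overlapped in neither lineage, as the choice for display required. Eomes rose by 1.32 ± 0.16 (edgeR adjusted p = 3.19e-05), 1.41 in CD8 and 1.24 in CD4 cells, with the CD8 minus CD4 difference at 0.17 (95% interval -0.49 to 0.83).

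**Figure D2:**
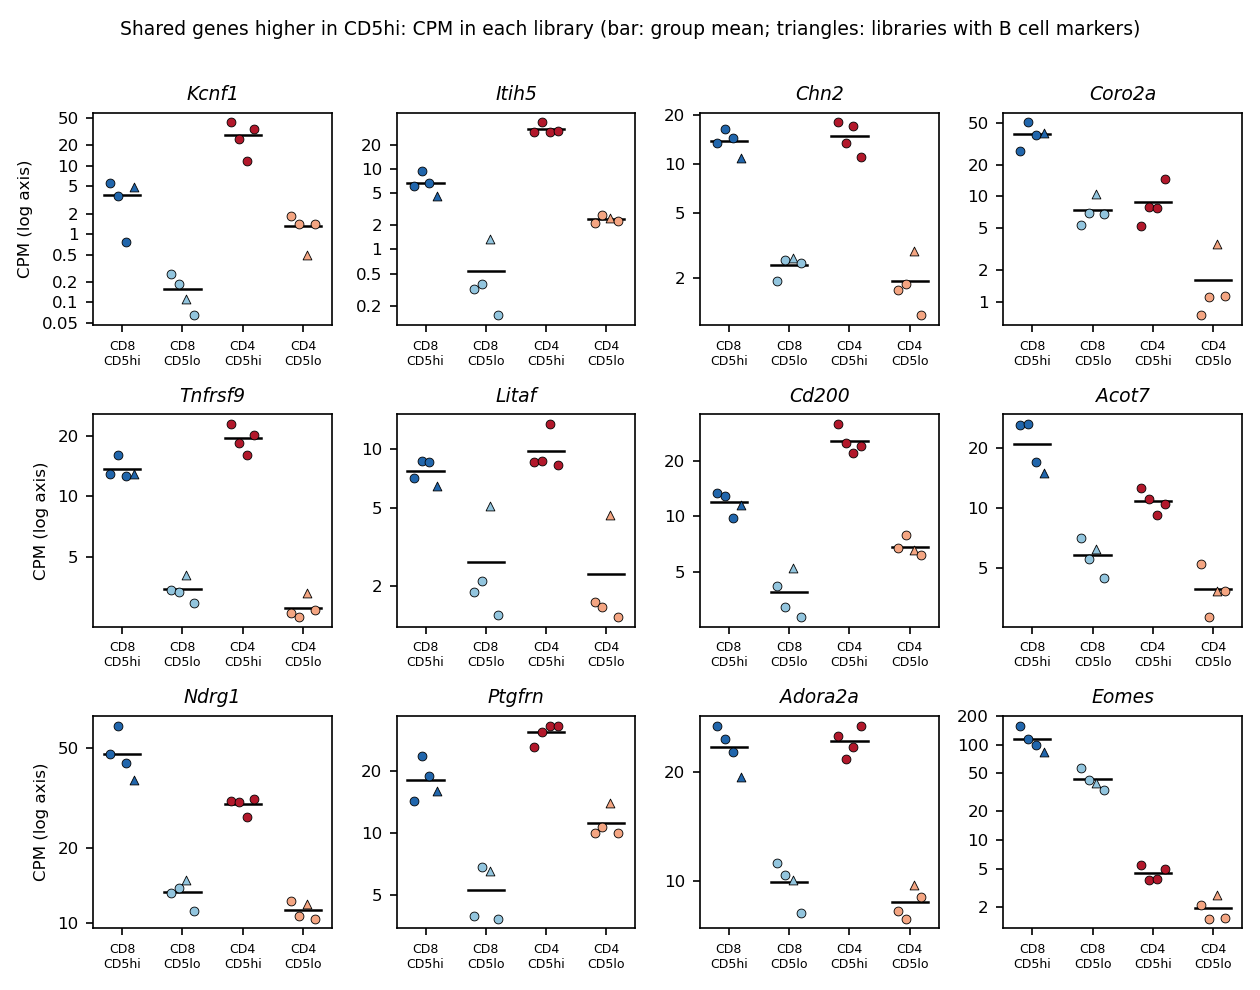
CPM on a log axis in each of the 16 libraries for the 12 higher genes chosen by the display rule, with groups ordered CD8 CD5hi, CD8 CD5lo, CD4 CD5hi and CD4 CD5lo. Each point is 1 library, bars are group means, and triangles mark the 3 libraries with B cell markers. Every CD5hi library lies above every CD5lo library of its lineage in all 12 panels, as the rule required, while the level of Eomes, Kcnf1 and Itih5 differs between CD8 and CD4 cells.

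Genes lower in CD5hi cells of both lineages included Grm6, Adamts14, Pdlim4 and Slc16a5, which led the display list. Grm6, a metabotropic glutamate receptor best known from the retina, was at 1.1, 1.25, 1.28 and 3.74 CPM in CD8 CD5hi, against 16.9, 11.7, 9.61 and 21.2 CPM in CD8 CD5lo, and at 1.54, 0.948, 0.745 and 1.7 CPM in CD4 CD5hi, against 6.97, 3.61, 4.09 and 7.35 CPM in CD4 CD5lo. Grm6 fell by 2.58 ± 0.28 (edgeR adjusted p = 2.1e-05), and CD8 CD5hi replicate 4, with B cell markers, was the highest of its group. Without the 3 libraries it fell by 3.02 with a size ratio of 0.606, under the limit of 0.7. Adamts14, a metalloprotease that trims procollagen, was at 1.51, 2.73, 3.27 and 5.48 CPM in CD8 CD5hi, against 18, 25.2, 21.3 and 18.4 CPM in CD8 CD5lo, and at 5.77, 10.6, 9.41 and 9.33 CPM in CD4 CD5hi, against 38.3, 36.9, 44.5 and 42.3 CPM in CD4 CD5lo. Adamts14 fell by 2.44 ± 0.19 (edgeR adjusted p = 6.3e-07), 2.67 in CD8 and 2.21 in CD4 cells. Slc16a5, of the monocarboxylate transporter family, was at 39.4, 28.5, 28.9 and 40.5 CPM in CD8 CD5hi, against 129.5, 112, 90.7 and 119.9 CPM in CD8 CD5lo, and at 35.1, 36.1, 32.1 and 32.1 CPM in CD4 CD5hi, against 144, 108, 99.6 and 132 CPM in CD4 CD5lo. Slc16a5 fell by 1.78 ± 0.10 (edgeR adjusted p = 2.56e-08), and its levels as well as its changes were close in both lineages.

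Pdlim4, an actin-associated PDZ and LIM domain protein, averaged 1.32 ± 1.39 CPM in CD8 CD5hi and 5.72 ± 1.47 in CD8 CD5lo, and 27 ± 3.62 CPM in CD4 CD5hi and 99.1 ± 8.11 in CD4 CD5lo. It fell by 1.99 ± 0.28, and without the 3 libraries by 2.45 with a size ratio of 0.618. Tdgf1 (Cripto), a co-receptor of Nodal in the embryo, was at 7.85, 6.14, 6.46 and 6.31 CPM in CD8 CD5hi, against 18.4, 15.4, 16.9 and 15.6 CPM in CD8 CD5lo, and at 4.32, 3.73, 4.47 and 3.73 CPM in CD4 CD5hi, against 9.75, 8.79, 9.29 and 7.69 CPM in CD4 CD5lo. Tdgf1 fell by 1.22 ± 0.08 (edgeR adjusted p = 5.27e-08). Its CD5hi and CD5lo libraries did not overlap in either lineage, as the choice for display required. Dmbt1, a secreted protein with scavenger receptor domains of the kind found in CD5, fell by 1.41 ± 0.12 with a size ratio of 0.706. Without the 3 libraries the size ratio of Dmbt1 was 0.675, under the limit of 0.7. Spsb1, a substrate receptor of a ubiquitin ligase, fell by 0.89 ± 0.06 (edgeR adjusted p = 1.1e-07). Gbp11, of the guanylate-binding proteins, fell by 1.19 ± 0.13, and the adhesion G protein-coupled receptor gene Adgrg3 by 0.91 ± 0.12. Lrrc23, known from cilia, Abhd15, known from fat cells, and Art4, of the ADP-ribosyltransferases, fell by 1.29, 1.21 and 0.96. Of the exonic bases of Abhd15, 10.8% overlap Trp53i13.

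**Figure D3:**
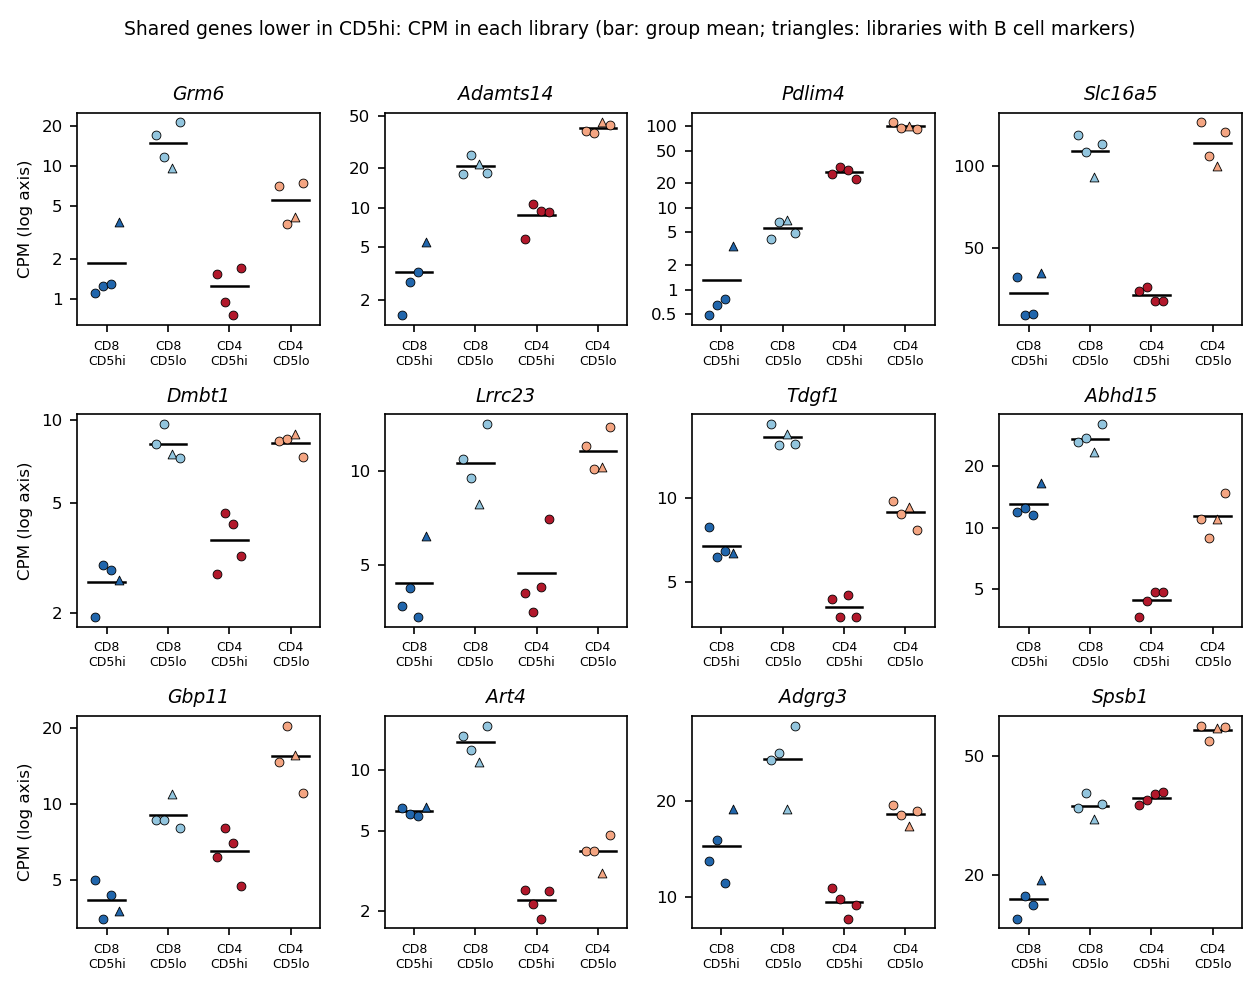
CPM on a log axis in each of the 16 libraries for the 12 lower genes chosen by the display rule, with the same group order and symbols as for the higher genes. Every CD5hi library lies below every CD5lo library of its lineage in all 12 panels, as the rule required, and CD8 CD5hi replicate 4 is the highest of its group for Grm6, Adamts14 and Pdlim4.

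Equal size can be read only from the interval of the difference between lineages, and few genes were measured well enough for that. Among genes changed at least 2-fold on average, the 95% interval of the CD8 minus CD4 difference lay within 1.5-fold either way for 7 higher and 2 lower genes. The 7, named after their values were seen, were Atcay, Hip1r, Dapl1, Cd101, Gsto1, Klhdc2 and Pear1, and the 2 were Tdgf1 and Slc16a5. Klhdc2, a substrate receptor of a ubiquitin ligase, was at 113, 96.7, 104 and 84.3 CPM in CD8 CD5hi, against 47.1, 46.1, 52.6 and 43 CPM in CD8 CD5lo, and at 146, 139, 132 and 131 CPM in CD4 CD5hi, against 55.9, 76.5, 61.3 and 55.8 CPM in CD4 CD5lo. Klhdc2 rose by 1.10 ± 0.07 (edgeR adjusted p = 1.09e-07), and the difference was -0.06 (95% interval -0.38 to 0.26). Dapl1, a death-associated protein homologue, averaged 180.4 ± 24.1 CPM in CD8 CD5hi and 80.5 ± 11 in CD8 CD5lo, and 106 ± 17.4 CPM in CD4 CD5hi and 48.1 ± 4.83 in CD4 CD5lo. It rose by 1.15 ± 0.09, with a difference of 0.03 (95% interval -0.36 to 0.42). Gsto1, an omega-class glutathione transferase, and Hip1r, which links clathrin to actin, rose by 1.11 and 1.29, and 12.5% of the exonic bases of Hip1r overlap Vps37b. Pear1, an EGF-repeat receptor of platelets, and Atcay, a protein of neurons, rose by 1.00 and 1.39. By contrast, the interval of Kcnf1 ran from -1.68 to 1.92 and that of Grm6 from -2.05 to 0.34.

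Cd5 itself, the gene of the sort, is outside the similar-size set. It was at 469, 552, 477 and 493 CPM in CD8 CD5hi, against 196, 203, 216 and 187 CPM in CD8 CD5lo, and at 1427, 1349, 1368 and 1399 CPM in CD4 CD5hi, against 276, 237, 267 and 239 CPM in CD4 CD5lo. The average rise of 1.88 ± 0.05 was made of 1.31 in CD8 and 2.44 in CD4 cells, a difference of -1.13 (95% interval -1.34 to -0.92; edgeR adjusted p = 3.1e-05). Its neighbour Cd6, a related scavenger receptor, rose by 1.57 ± 0.05, 1.13 in CD8 and 2.01 in CD4 cells. The gate was set on CD5 protein, so the direction of the Cd5 change is no finding. Among the 590 genes of similar size, 325 had the larger change in CD8 cells.

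**Figure D4:**
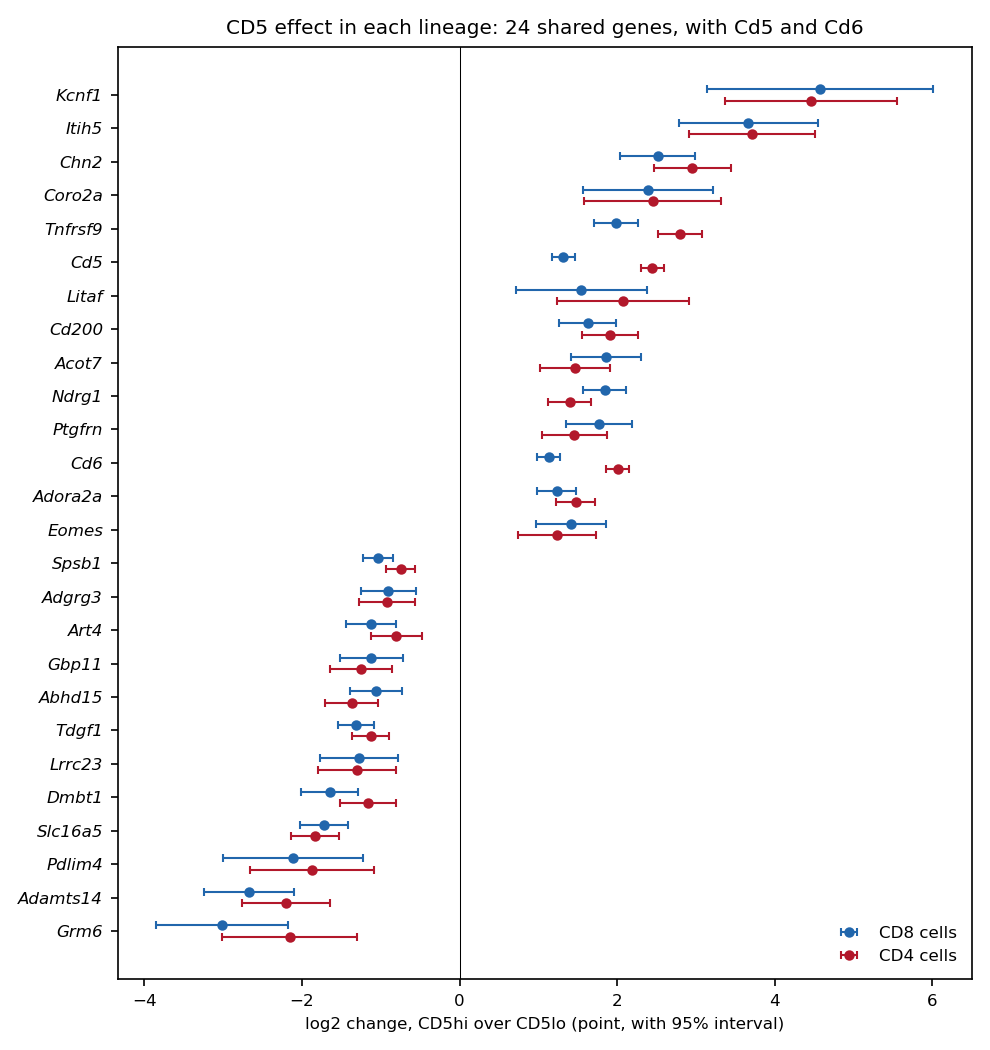
Log2 change of CD5hi over CD5lo with its 95% interval for the 24 displayed genes and for Cd5 and Cd6, CD8 cells in blue above CD4 cells in red, ordered by the average change. The intervals of both lineages overlap for the 24 except Tnfrsf9, and those of Cd5 and Cd6 do not, with the CD8 change the smaller in all 3.

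Averaging also called 422 genes, 201 higher and 221 lower, that passed in neither lineage on its own. These are the genes that only the average brings past the threshold. The 6 higher genes with the smallest adjusted p, among those averaging 5 CPM or more, were Itgal, Add3, Commd10, Socs5, Ttc39b and Mapk11. Itgal, the alpha chain of the integrin LFA-1, was at 781, 859.6, 804 and 752 CPM in CD8 CD5hi, against 702, 699, 706 and 678 CPM in CD8 CD5lo, and at 736, 767, 736 and 668 CPM in CD4 CD5hi, against 660.4, 557, 637 and 636 CPM in CD4 CD5lo. Itgal rose by 0.21 ± 0.05 (edgeR adjusted p = 0.00507), with the groups apart in both lineages. Add3, a membrane skeleton adducin, and Commd10, a COMM domain protein, each rose by 0.24, and Ttc39b by 0.22. Socs5, a suppressor of cytokine signalling, rose by 0.46, and Mapk11, a p38 kinase, by 0.63. Without the 3 libraries Mapk11 rose by 0.43 with a size ratio of 0.343. Of the lower ones chosen the same way, Them6, Jag2, Lrp8, Bbs4 and Adgrg5 are given. Jag2, a Notch ligand, fell by 0.52 ± 0.11 (edgeR adjusted p = 0.00545), and Lrp8, a receptor for reelin and apolipoprotein E, by 0.43. Bbs4, of the ciliary BBSome, fell by 0.32, Them6 by 0.34 and Adgrg5, an adhesion G protein-coupled receptor, by 0.72. These genes had size ratios from 0.705 to 0.994.

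Among genes listed here as restraining TCR signalling, Pdcd1, Lag3, Lax1 and Cd200 and the phosphatases Ubash3b and Ptpn6 rose by similar sizes in both lineages with all libraries. Of 20 tested receptors and adaptors of this kind, 7 rose and 3 fell, beside 7.55% and 5.07% of all genes tested, and 4 of the 7 were of similar size, a class of 2.44% of all genes. The list had a median log2 change of 0.16, against -0.01 over all genes tested, and 8 rose and 4 fell without the 3 libraries. Cd5, the gene of the sort, is counted in these numbers and in the 7, and the direction of its change is no finding. Cd200 is counted among the 4 of similar size, although the receptor of its product inhibits myeloid cells. Besides Cd5, Cd6 and Cd200, the members Pdcd1 and Lag3 are given here after their values were seen. Pdcd1 (PD-1) was at 5.06, 5.18, 2.86 and 3.43 CPM in CD8 CD5hi, against 1.08, 1.38, 1.2 and 1.17 CPM in CD8 CD5lo, and at 10.1, 7.37, 5.51 and 7.95 CPM in CD4 CD5hi, against 1.82, 1.52, 2.12 and 2.38 CPM in CD4 CD5lo. Pdcd1 rose by 1.88 ± 0.15 (edgeR adjusted p = 7.93e-07), with a difference of -0.21 (95% interval -0.86 to 0.45). Lag3, which binds MHC class II, rose by 2.30 ± 0.34 from low levels. It averaged 1.7 CPM in CD8 CD5hi and 0.293 in CD8 CD5lo, and 2.38 CPM in CD4 CD5hi and 0.57 in CD4 CD5lo. In CD8 CD5lo, replicate 3, a library with B cell markers, was at 0.724 CPM, and the others of its group at 0.132 to 0.176 CPM.

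Of 24 phosphatases, kinases and ligases that restrain the TCR, 3 rose and 1 fell, beside 7.55% and 5.07% of all genes tested, with a median of 0.07, and 6 rose and 1 fell without the 3 libraries. Ubash3b (Sts-1), a phosphatase that acts on the kinase ZAP-70, was at 46.5, 36.9, 52.7 and 40.6 CPM in CD8 CD5hi, against 21.9, 16.2, 25 and 20.005 CPM in CD8 CD5lo, and at 54.4, 51.5, 58.4 and 49.6 CPM in CD4 CD5hi, against 21.9, 18.6, 24.9 and 20.8 CPM in CD4 CD5lo. Ubash3b rose by 1.2005 ± 0.09 (edgeR adjusted p = 4.24e-07), 1.09 in CD8 and 1.31 in CD4 cells. Ptpn6 (SHP-1) rose by 0.51 ± 0.09 at a size ratio of 0.932. The diacylglycerol kinase gene Dgka fell by 0.30, with changes of -0.43 in CD8 and -0.17 in CD4 cells.

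The lower genes of similar size included members of the machinery that carries the TCR signal. Of 23 proximal signalling genes, 2 rose and 6 fell, beside the same 7.55% and 5.07%, and 4 of the 6 were of similar size (1.91% of all genes), with a list median of -0.06, and 1 rose and 6 fell without the 3 libraries. Grap2 (Gads), the adaptor that joins LAT to SLP-76, was at 683, 844, 911 and 930.2 CPM in CD8 CD5hi, against 1142, 1249, 1205 and 1293 CPM in CD8 CD5lo, and at 616, 744, 746 and 686 CPM in CD4 CD5hi, against 978, 1026, 1050.5 and 1108 CPM in CD4 CD5lo. Grap2 fell by 0.56 ± 0.06 (edgeR adjusted p = 2.21e-05), with every CD5hi library below every CD5lo library of its lineage. The Tec family kinase gene Txk fell by 0.29 ± 0.04. Its relative Tec fell by 0.67, with changes of -0.20 in CD8 and -1.13 in CD4 cells, which is not a similar size. Cd247, the zeta chain of the TCR complex, fell by 0.28 ± 0.05, with 56.4% of its exonic bases shared with Pou2f1. Of 25 genes that TCR signals induce early, 5 rose and 1 fell, again beside 7.55% and 5.07%, with a median of -0.01, and 7 rose and 1 fell without the 3 libraries. Jun, which is also on the list of handling stress genes, fell by 0.61 ± 0.10.

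Few NF-kB pathway genes passed the test, with Malt1 the 1 call on the higher side. Of 31 pathway genes, 1 rose and 1 fell, under the 7.55% and 5.07% of all genes, with a median of -0.04, and the counts were also 1 and 1 without the 3 libraries. Malt1, the paracaspase of the complex that carries antigen receptor signals to NF-kB, was at 196, 213, 240.2 and 191 CPM in CD8 CD5hi, against 162, 171, 181 and 147 CPM in CD8 CD5lo. In CD4 cells it was at 192, 202, 186 and 170.5 CPM in CD5hi, against 145, 158, 148 and 141 CPM in CD5lo. The groups did not overlap in either lineage. Malt1 rose by 0.34 ± 0.06 (edgeR adjusted p = 0.000795), 0.35 in CD8 and 0.34 in CD4 cells, a size ratio of 0.981, and without the 3 libraries by 0.40. Tab1, an activator of the kinase TAK1, fell by 0.15 ± 0.04 (edgeR adjusted p = 0.0311). That call was lost without the 3 libraries (edgeR adjusted p = 0.0786) and when any 1 of 11 libraries was left out.

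Nfkbia, which encodes IkB-alpha and is itself an NF-kB target, averaged 285 ± 67.3 CPM in CD8 CD5hi and 351 ± 87.8 in CD8 CD5lo, and 336 ± 72.9 CPM in CD4 CD5hi and 350.1 ± 102 in CD4 CD5lo. Its average change was -0.18, with a 95% interval of -0.52 to 0.16 (edgeR adjusted p = 0.547). For the subunit genes the average changes were 0.11 for Nfkb1 (95% interval 0.02 to 0.19) and -0.13 for Nfkb2 (-0.38 to 0.12). They were -0.11 for Rela (-0.34 to 0.12), 0.08 for Relb (-0.11 to 0.28) and 0.05 for Rel (-0.46 to 0.56). The interval of Nfkb1 alone excluded 0, at an edgeR adjusted p of 0.121, and that of Rel was the widest. Nfkbia, Rela and Nfkb1 did pass in a fit with a replicate block by lineage, the first 2 on the lower side. Protein and NF-kB activity were not measured. Among 28 tested targets of NF-kB, 3 were higher and 4 lower, beside 7.55% and 5.07% of all genes, with a median of -0.16, and without the 3 libraries 5 rose and 4 fell, with a median of 0.02. The 3 were Tnfrsf9 and the near-identical survival genes Bcl2a1b and Bcl2a1d, between which reads can be shared. Traf1, a signalling adaptor of TNF receptors named after its values were seen, fell by 0.57 ± 0.10, 0.53 in CD8 and 0.60 in CD4 cells.

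Promoters of 4 genes described here that hold a searched motif are shown so that the letters can be compared with the measured changes. Capitals mark a match on either strand and none of the matches overlap. The Bcl2a1b window is chr9:89199023-89199322 on the plus strand and holds an AP-1 site and, on the opposite strand, an Egr site. Tnfrsf25 has 2 starts in the table, and the window of the first, chr4:152115684-152115983 on the plus strand, holds an NF-kB core. The Adgrg5 window, chr8:94923444-94923743 on the plus strand, holds an NF-kB core in a gene that was lower in CD5hi. The Nfkbia window, chr12:55492598-55492897 on the minus strand, holds 3 NF-kB cores in a gene that passed in neither direction.
Bcl2a1b promoter: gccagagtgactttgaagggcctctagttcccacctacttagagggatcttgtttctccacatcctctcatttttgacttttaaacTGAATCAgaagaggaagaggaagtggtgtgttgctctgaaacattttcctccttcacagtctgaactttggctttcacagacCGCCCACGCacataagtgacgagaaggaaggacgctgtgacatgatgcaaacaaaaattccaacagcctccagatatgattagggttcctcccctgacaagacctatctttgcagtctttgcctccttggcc
Tnfrsf25 promoter: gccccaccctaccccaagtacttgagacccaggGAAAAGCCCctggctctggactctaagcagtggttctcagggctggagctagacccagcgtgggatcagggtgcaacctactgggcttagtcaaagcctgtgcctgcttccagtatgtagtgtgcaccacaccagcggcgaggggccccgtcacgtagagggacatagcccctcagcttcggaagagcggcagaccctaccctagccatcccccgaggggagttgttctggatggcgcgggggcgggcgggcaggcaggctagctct
Adgrg5 promoter: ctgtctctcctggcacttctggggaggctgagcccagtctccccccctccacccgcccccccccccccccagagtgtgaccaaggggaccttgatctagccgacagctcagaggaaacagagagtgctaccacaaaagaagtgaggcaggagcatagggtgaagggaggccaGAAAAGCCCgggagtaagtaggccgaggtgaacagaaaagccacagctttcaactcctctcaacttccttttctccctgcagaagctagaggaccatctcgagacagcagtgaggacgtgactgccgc
Nfkbia promoter: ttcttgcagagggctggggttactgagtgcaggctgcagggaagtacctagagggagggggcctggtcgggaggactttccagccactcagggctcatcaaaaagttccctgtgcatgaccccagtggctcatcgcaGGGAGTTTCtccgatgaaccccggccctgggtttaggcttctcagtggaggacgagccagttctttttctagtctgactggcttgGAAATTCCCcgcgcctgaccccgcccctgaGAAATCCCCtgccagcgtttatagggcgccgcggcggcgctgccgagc
A match is a description of these letters and was not tested as a binding site.

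Genes of regulatory and anergic T cells were mostly higher, with sizes that differed between lineages. Of 18 tested, 11 rose and 1 fell, beside 7.55% and 5.07% of all genes tested, and the list median was 1.00, at 0.67 in CD8 and 1.28 in CD4 cells. With the 3 libraries left out, 14 rose and 0 fell in edgeR, the fall of Itgae being the call lost. The 2 that rose by similar sizes were the costimulatory receptor genes Tnfrsf9 and Tnfrsf18. Izumo1r (folate receptor 4) rose by 1.01 in CD8 and 2.43 in CD4 cells, a difference of -1.42 (edgeR adjusted p = 0.00662). Gpr83, an orphan receptor of regulatory cells, rose by 1.26 ± 0.10. Foxp3, which specifies regulatory T cells, was at 1.47, 2.35, 1.77 and 8.31 CPM in CD8 CD5hi, against 1.45, 1.7, 4.16 and 1.59 CPM in CD8 CD5lo, and at 14.4, 17.8, 15.4 and 22.1 CPM in CD4 CD5hi, against 4.05, 3.98, 5.96 and 5.86 CPM in CD4 CD5lo. The highest CD8 values were in CD8 CD5hi replicate 4 and CD8 CD5lo replicate 3, the CD8 libraries with B cell markers. These also held Cd4 RNA, at 62.2 and 27.2 CPM, against 0.415 to 2.51 CPM in the other CD8 libraries. Foxp3 rose by 1.23 ± 0.33 (edgeR adjusted p = 0.0207), and without the 3 libraries by 1.08 with a size ratio of 0.132. Of its exonic bases, 12.9% overlap Ccdc22. Itgae, the alpha E integrin chain, fell by 0.80 ± 0.24 and was named after its values were seen. That call was lost under 11 of 26 alternatives, among them without the 3 libraries (edgeR adjusted p = 0.133), and in CD4 cells Itgae was at no more than 3.36 CPM.

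Of the 5 Ikaros family transcription factors, 4 rose, also without the 3 libraries, beside 7.55% of all genes tested, with a median of 0.55. Of the 4, 1 was of similar size. Ikzf3 (Aiolos) changed alike in both lineages, at 227, 241, 266 and 228 CPM in CD8 CD5hi, against 145, 161, 189 and 157 CPM in CD8 CD5lo, and at 120.3, 131, 132 and 104 CPM in CD4 CD5hi, against 79.7, 68, 102 and 86.6 CPM in CD4 CD5lo. Ikzf3 rose by 0.55 ± 0.08 (edgeR adjusted p = 0.000261), with a size ratio of 0.952. Ikzf2 (Helios) and Ikzf4 (Eos) rose by 2.06 ± 0.22 and 1.12 ± 0.11, with size ratios of 0.57 and 0.578. Of 16 TNF receptor and CD28 family genes, 4 rose and 1 fell, beside 7.55% and 5.07% of all genes tested, with a median of 0.16, and 5 rose and 2 fell without the 3 libraries. Tnfrsf25 (DR3) averaged 40.5 ± 0.816 CPM in CD8 CD5hi and 27.9 ± 3.35 in CD8 CD5lo, and 123 ± 13.3 CPM in CD4 CD5hi and 93.1 ± 10.2 in CD4 CD5lo. It rose by 0.47 ± 0.07. The costimulator Icos rose by 0.44 and the TNF receptor gene Tnfrsf1a fell by 0.36.

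BCL2 family genes balance survival and death, and genes of both roles were among those that rose. Of 15 tested, 7 rose and 2 fell, against shares of 7.55% and 5.07% over all genes, with 4 and 1 of similar size (2.44% and 1.91% of all genes) and a median of 0.23, and 6 rose and 2 fell without the 3 libraries. Bcl2l11 (BIM), which promotes death, was at 74.4, 92.6, 110.2 and 88.5 CPM in CD8 CD5hi, against 47.2, 50.2, 57.2 and 50.6 CPM in CD8 CD5lo, and at 73, 75.9, 91.2 and 83 CPM in CD4 CD5hi, against 39.8, 48.3, 63.3 and 54.4 CPM in CD4 CD5lo. Bcl2l11 rose by 0.74 ± 0.09 (edgeR adjusted p = 6.95e-05), with no overlap of the groups in either lineage. Bcl2a1b, which promotes survival, rose by 1.01 ± 0.14, and its copy Bcl2a1d by 1.25 ± 0.18.

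Single interferon-stimulated genes, class I presentation genes and handling stress genes fell, and few or none rose. Over all genes tested 7.55% rose, 5.07% fell and 1.91% fell by similar sizes. Of 46 interferon-stimulated genes, 0 rose by edgeR, DESeq2, limma or an unadjusted p under 0.05, and 8 fell, 3 of them of similar size, with a median of -0.10, while without the 3 libraries 2 rose and 7 fell. Igtp and Irgm2, GTPases that act against intracellular pathogens, fell by 0.43 ± 0.04 and 0.47 ± 0.08, and 8.01% of the exonic bases of Igtp are shared with Irgm2. Gbp2, of the guanylate-binding proteins, fell by 0.28, with changes of -0.16 in CD8 and -0.40 in CD4 cells. Of 16 MHC class I presentation genes, 0 rose by edgeR, DESeq2 or limma (2 at an unadjusted p under 0.05) and 5 fell, with a median of -0.06, the same counts as without the 3 libraries. Tap1, a subunit of the peptide transporter, fell by 0.25 ± 0.04 at a size ratio of 0.962, and Nlrc5, the activator of class I genes, fell by 0.20. Of 23 genes that respond to tissue handling, 0 rose by edgeR, DESeq2, limma or an unadjusted p under 0.05, and 4 fell, with a median of -0.32 that was -0.32 in CD8 and -0.29 in CD4 cells, and 4 fell without the 3 libraries. Btg2, which slows proliferation, fell by 0.40 ± 0.07, and the heat shock cochaperone Dnajb1 by 0.41 ± 0.09. These stress genes moved with the CD5 groups, and their part in the other results was not tested.

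Thymocyte and recent emigrant genes held the shared falls Dntt and Adamts14. Of 14 tested, 2 rose and 4 fell, beside 7.55% and 5.07% of all genes tested, with a median of -0.14, and 3 rose and 4 fell without the 3 libraries. Dntt, the terminal transferase of developing lymphocytes, was at 0.91, 0.954, 0.508 and 1.37 CPM in CD8 CD5hi, against 9.1, 7.91, 4.18 and 7.61 CPM in CD8 CD5lo, and at 0.731, 0.96, 0.668 and 0.855 CPM in CD4 CD5hi, against 5.22, 5.28, 3.06 and 6.62 CPM in CD4 CD5lo. Dntt fell by 2.80 ± 0.21 (edgeR adjusted p = 4.46e-07), with a size ratio of 0.899 and no overlap of the groups in either lineage. Ccr9, a gut and thymus homing receptor, fell by 1.19 in CD8 and 1.98 in CD4 cells. Of 18 naive-state and homing genes, 2 rose and 2 fell, beside the same shares, with a median of -0.10. Id3, an inhibitor of E proteins, rose by 0.72 ± 0.16 at a size ratio of 0.824. Of 14 chemokine receptors, Ccr8 rose by 2.03 ± 0.52, at a mean of 1.72 CPM over all libraries, and Ccr9 fell.

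Single ion channel and transporter genes had large changes. Of 25 potassium channel subunits, 4 rose and 5 fell, beside 7.55% and 5.07% of all genes tested, with a median of -0.16, and without the 3 libraries 3 of 23 rose and 6 fell, with a median of 0.15. Besides Kcnf1, Kcnq5 rose by 1.70 ± 0.17 and Kcna2 fell by 1.66 ± 0.12, at size ratios of 0.652 and 0.693. Of 206 solute carriers, 20 rose and 10 fell, near the background, with 7 and 5 of similar size and a median of -0.01. Slc6a19, an amino acid transporter named after its values were seen, averaged 3.96 ± 1.37 CPM in CD8 CD5hi and 36.4 ± 7.87 in CD8 CD5lo. Its average fall was 2.75 ± 0.40, while in CD4 cells it was at no more than 0.323 CPM and did not pass alone (edgeR adjusted p = 0.0649). Slc29a4, a monoamine and nucleoside transporter, rose by 2.55 ± 0.28 at levels of at most 0.733 CPM. Of 33 cytoskeletal regulators, 6 rose and 1 fell, with a median of 0.04. Of 27 cytokine receptor and SOCS genes, 3 rose and 2 fell, with a median of 0.01, and Socs3 fell by 1.10 ± 0.10.

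Cell cycle and glycolysis genes were called in the average, with none of the called ones of similar size. Of 28 cell cycle genes, 23 rose and 1 fell, against 7.55% and 5.07% of all genes, and 0 were of similar size, against 2.44% and 1.91%, with list medians of 1.76 in CD8 and 0.40 in CD4 cells. Stmn1, a microtubule regulator of dividing cells, rose by 1.44 ± 0.18, with changes of 2.45 in CD8 and 0.43 in CD4 cells, and the difference passed (edgeR adjusted p = 0.0278). The sum of the 28 genes ran from 748 to 1366 CPM in CD8 CD5hi, against 589.8 to 679 CPM in CD8 CD5lo, and from 579.6 to 667 CPM in CD4 CD5hi, against 546 to 646 CPM in CD4 CD5lo. Of 18 glycolysis genes, 7 rose by edgeR, 0 fell by edgeR, DESeq2, limma or an unadjusted p under 0.05, and 0 were of similar size. Tpi1 rose by 0.64 in CD8 cells and had a change of 0.05 in CD4 cells. Among 34 genes of effector and memory cells, 7 were higher and 5 lower, against 7.55% and 5.07% of all genes, with list medians of 0.64 in CD8 and -0.71 in CD4 cells, and Eomes and Il18r1 alone were of similar size. Over the 34 genes the median average change was -0.14, and without the 3 libraries it was 0.63, with 8 higher and 6 lower. Anxa2, a calcium-binding annexin, rose by 1.94 in CD8 and 0.77 in CD4 cells. Of 94 ribosomal protein genes, 0 were higher and 0 lower by edgeR, against 3 and 1 at an unadjusted p under 0.05, 1 and 1 by DESeq2 and 0 and 0 by limma.

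**Figure D5:**
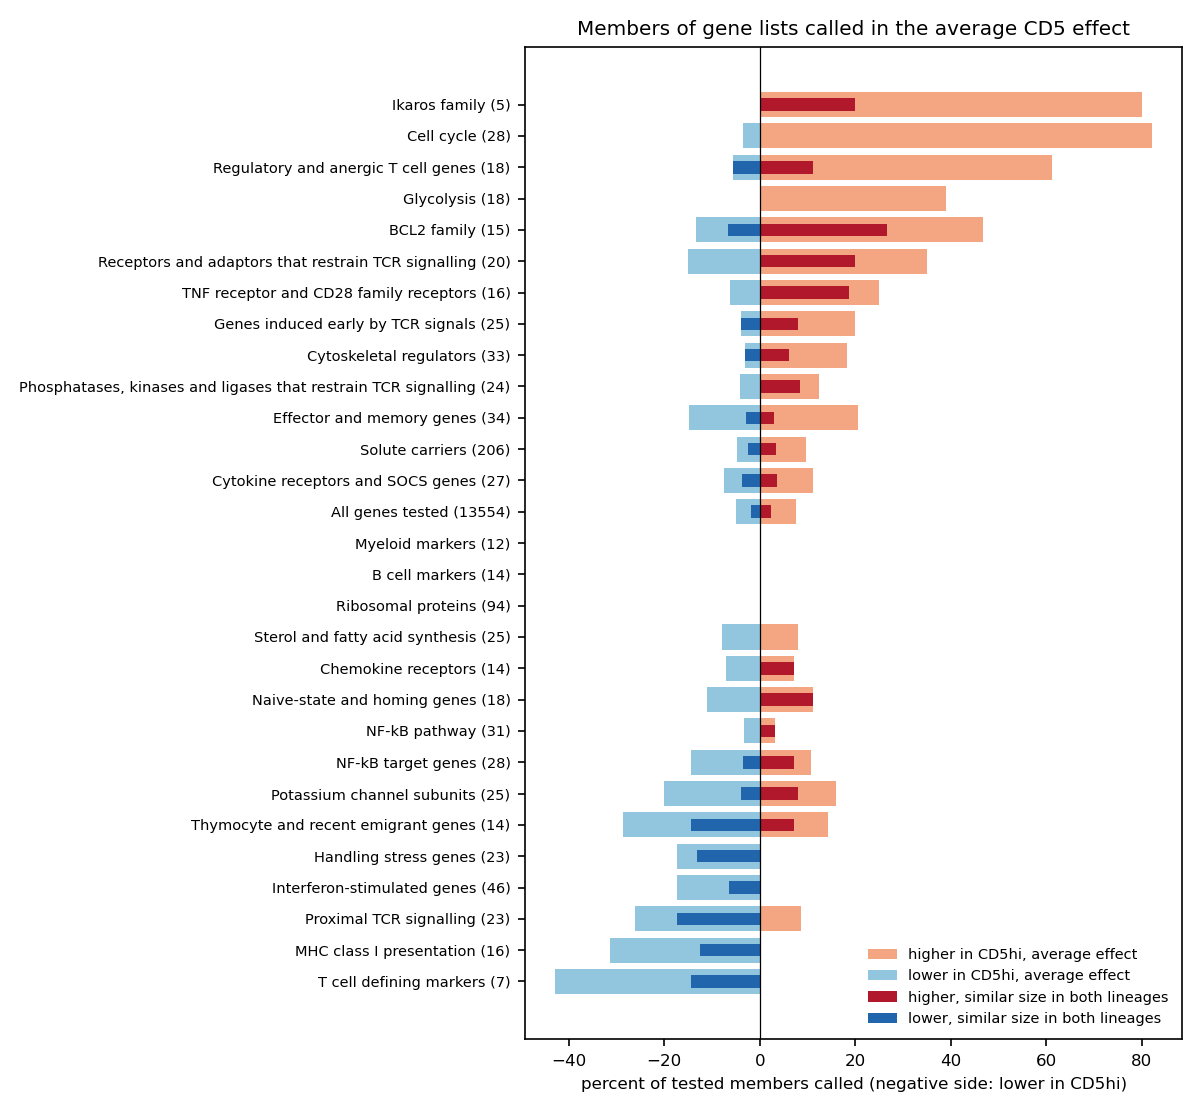
Share of each gene list's tested members (number in brackets) called higher (right) or lower (left) in the average CD5 effect, as percent, with the members of similar size in dark colour inside the bars. Cell cycle genes have the widest bar, 23 of 28, and no dark part. The list named for receptors and adaptors that restrain TCR signalling, which includes Cd200, has 4 higher members of similar size. The BCL2 family list also has 4.

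Shared genes lay next to each other in the genome at a few places. Among 13003 pairs of adjacent tested genes, both were of similar size and higher in 23, both lower in 13, and they went in opposite directions in 6. A run of 4 higher genes lies on chromosome 4 (GRCm38): Tnfrsf25 at chr4:152115934-152120119, Espn at chr4:152120331-152152371, Acot7 at chr4:152178134-152271855 and Gpr153 at chr4:152274232-152285337. Espn, an actin-bundling protein, rose by 0.62 ± 0.12, and Gpr153, an orphan receptor, by 1.48 ± 0.41. Gpr153 was at no more than 0.519 CPM in any library, and its CD8 CD5hi and CD8 CD5lo libraries overlapped. The call of Gpr153 was lost without any of 4 single libraries. Espn and Gpr153 were both named after their values were seen. Cd101 and Ptgfrn lie 10675 bp apart on chromosome 3. By level, the higher shared genes had a median of 12.5 CPM and the lower ones 20.2 CPM, against 21.8 CPM for all genes tested. Median exonic length was 4071, 5031.5 and 4202.5 bp in the same order.

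Leaving out the 3 libraries with B cell markers gave 1106 higher and 713 lower genes in the average effect. Of the 1711 genes called with all 16 libraries, 1447 were called again, and of the 590 of similar size, 504 were called again and 408 were again of similar size. The sets without them counted 323 higher and 230 lower genes of similar size. Of the genes named, Itgae, Tab1 and Dhcr7, the last an enzyme of sterol synthesis, lost their calls. Il2ra, which encodes the CD25 of the gate, rose by 0.91 (edgeR adjusted p = 0.0192), against a change of 0.94 with all libraries (adjusted p = 0.147). With all libraries, 0 of 14 B cell and 0 of 12 myeloid markers tested passed in edgeR, DESeq2 or limma, and 1 and 0 had an unadjusted p under 0.05. Without the 3 libraries, 1 of 14 B cell and 2 of 9 myeloid markers tested were lower in edgeR. With all libraries the median changes of these markers were 0.50 and 0.29 in CD8 cells and -2.67 and -1.30 in CD4 cells. Cd8b1, a CD8 chain, fell by 0.47 in CD8 and 1.82 in CD4 cells. Its level was 7.5 to 30.3 CPM in CD4 libraries, against 905 to 1462 CPM in CD8 libraries. Cd8a, the other chain, fell on average by 1.14 ± 0.28, with changes of -0.30 in CD8 and -1.97 in CD4 cells. It was at 0.692 to 11.4 CPM in CD4 libraries, against 1563 to 2140 CPM in CD8 libraries. The highest CD4 value was that of CD5lo replicate 3, a library with B cell markers. Of the 3 natural killer cell markers tested, Gzma and Prf1 fell by 1.78 and 0.67 and Klrb1c rose by 1.37.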

How the data were processed

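RNA was extracted with TRIzol and RNeasy columns with DNase, and either of 2 TruSeq kits, RNA v2 or stranded mRNA, served for library construction, per the labels' protocols. Which kit served which sample and the strand setting are not given, so overlapping genes are marked as uncertain. STAR 2.5.2a, featureCounts 1.4.6-p3 and mm10 are named in the submitters' processing notes. The deposited table holds raw counts per gene, 1 column per sample, and the authors' 2 technical replicates per sample are not separate in it. Even numbers made up 73.9% to 80.5% of the counts of 1 to 9 in a library and 49.2% to 51.3% of those of 1000 and over. How the technical replicates were joined is not stated. Names turned into dates (27 rows, 0.263% of counts) were kept in the fit and not named.

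Genes passing edgeR's filterByExpr (count minimum 10, total 15) were fitted with 1 term per group over all 16 libraries (TMM factors, 12 residual degrees of freedom). Contrasts were CD5hi minus CD5lo in each lineage, their mean and their difference, tested with edgeR 4.0.16 (quasi-likelihood, R 4.3.3) and Benjamini-Hochberg adjustment over all genes. The steps were tested on simulated data. Alternatives used DESeq2 1.42.0, limma 3.58.1, other scalings and filters, and left-out libraries. Replicates are biological per the design text, and the fit holds no term for the replicate number. Counts of any pair of libraries of one group differed by more than sampling noise (chi-square per degree of freedom 28.6 to 203).

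The members, the gene lists and the 3 libraries left out were chosen with earlier results of these data known. Named are the 12 largest changes each way among genes of similar size with 5 CPM or more and no overlap, the 6 with the smallest adjusted p each way called in the average alone, up to 3 called members per list by adjusted p, and a fixed set of control and NF-kB genes. Some genes that these rules select are not reported here. Gene positions are from GENCODE vM21 (GRCm38). RefSeq's promoter table (GRCm38.p6) matched 76.4% and 78.8% of the higher and lower genes of similar size and 78.7% of all tested, under 80%, so a comparison of motifs or GC content over the sets is void.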

Additional observations from a re-analysis of the deposited data

Results flagged for a closer look

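Of 480 groups of 4 libraries examined over the genes named, 30 held 1 library whose gap to its nearest neighbour, divided by the range, exceeded the 95% critical value of Dixon's test for 4 values. Chance alone flags about 1 in 20 groups. Of the 30, 18 lay in the 3 libraries with B cell markers. In CD8 CD5hi replicate 4, the highest of its group by this measure were Grm6 at 3.74 CPM (others 1.1 to 1.28), Pdlim4 at 3.4 CPM (others 0.482 to 0.761), Cd4 at 62.2 CPM (others 0.415 to 0.75), Il2ra at 5.91 CPM (others 1.14 to 1.38), Foxp3 at 8.31 CPM (others 1.47 to 2.35), Cd74 at 319 CPM (others 4.73 to 11.1), Espn at 5.17 CPM (others 3.51 to 3.78) and Traf1 at 154 CPM (others 119 to 124). In CD8 CD5hi replicate 4, the lowest of its group by this measure was Ikzf2 at 26.2 CPM (others 46.1 to 49.8). In CD8 CD5lo replicate 3, the highest of its group by this measure were Cd4 at 27.2 CPM (others 0.568 to 2.51), Il2ra at 3.09 CPM (others 0.832 to 1.03), Foxp3 at 4.16 CPM (others 1.45 to 1.7), Cd74 at 192 CPM (others 5.35 to 16.5) and Lag3 at 0.724 CPM (others 0.132 to 0.176). In CD8 CD5lo replicate 3, the lowest of its group by this measure was Lss at 26.8 CPM (others 31.3 to 31.8). In CD4 CD5lo replicate 3, the highest of its group by this measure were Coro2a at 3.49 CPM (others 0.737 to 1.12), Litaf at 4.61 CPM (others 1.39 to 1.66) and Cd74 at 135 CPM (others 7.49 to 12.3). Outside these 3, each library is given with the range of the others of its group in brackets. High values were Itih5 at 37.7 CPM in CD4 CD5hi replicate 2 (28.4 to 29.3), Tnfrsf9 at 15.9 CPM in CD8 CD5hi replicate 2 (12.6 to 12.9) and Litaf at 13.4 CPM in CD4 CD5hi replicate 3 (8.25 to 8.71). Also high were Bbs4 at 16.2 CPM in CD8 CD5hi replicate 1 (14 to 14.3), Bcl2a1b at 13.8 CPM in CD4 CD5hi replicate 1 (8.85 to 9.56) and Ccr9 at 521 CPM in CD8 CD5lo replicate 1 (417 to 426). Further high values were Id3 at 140.3 CPM in CD4 CD5hi replicate 1 (81.3 to 85.2), Kif23 at 15.1 CPM in CD4 CD5hi replicate 3 (11.2 to 11.7) and Kif23 at 59.3 CPM in CD8 CD5lo replicate 1 (49.2 to 50.7). The last high ones were Scd2 at 126 CPM in CD4 CD5lo replicate 4 (102 to 104). Low values were Socs5 at 24.4 CPM in CD8 CD5hi replicate 2 (29.7 to 30.5) and Nfkb1 at 265 CPM in CD4 CD5lo replicate 2 (299 to 303).

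The CD5 effect differed between lineages, by edgeR's test of the difference with adjusted p under 0.05, for 8 of the genes named. For Cd5 the CD8 minus CD4 difference was -1.13, from 1.31 in CD8 and 2.44 in CD4 cells (edgeR adjusted p = 3.1e-05). Cd6 had a CD8 minus CD4 difference of -0.874, from 1.13 in CD8 and 2.01 in CD4 cells (edgeR adjusted p = 0.000388). Tec had a CD8 minus CD4 difference of 0.929, from -0.20 in CD8 and -1.13 in CD4 cells (edgeR adjusted p = 0.016). Izumo1r had a CD8 minus CD4 difference of -1.42, from 1.01 in CD8 and 2.43 in CD4 cells (edgeR adjusted p = 0.00662). Kif23 had a CD8 minus CD4 difference of 0.936, from -0.49 in CD8 and -1.43 in CD4 cells (edgeR adjusted p = 0.0423). Stmn1 had a CD8 minus CD4 difference of 2.01, from 2.45 in CD8 and 0.43 in CD4 cells (edgeR adjusted p = 0.0278). Tpi1 had a CD8 minus CD4 difference of 0.591, from 0.64 in CD8 and 0.05 in CD4 cells (edgeR adjusted p = 0.0229). Cd8b1 had a CD8 minus CD4 difference of 1.35, from -0.47 in CD8 and -1.82 in CD4 cells (edgeR adjusted p = 1.6e-05), and was at no more than 30.3 CPM in CD4 libraries. None of the 8 is in the set of similar size, which the size rule, using the same changes, makes likely by itself.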

How the results depend on the processing

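The counts of genes higher and lower in the average effect, of similar size, and called in the average alone stayed within 1.5 times under other scalings, no filter, halved counts, limma, DESeq2 (1243 higher and 931 lower) and without the 3 libraries. The additive fit, which gives only the first pair of counts, had 943 higher and 645 lower. With the replicate block they were 1943 higher, 1765 lower, 538 and 549 of similar size and 640 in the average alone. With the replicate block by lineage they were 2025, 1839, 554, 557 and 643, and calls were gained by Nfkbia (-0.169, edgeR adjusted p = 0.00997), Rela (-0.117, 0.0288), Nfkb1 (0.107, 0.0331) and Cd44 (0.563, 0.0334), that of Nfkb1 also with the replicate block (0.043). The labels do not tie numbers to shared mice. Deviations of same-numbered CD5hi and CD5lo libraries correlated at over 0.1 in 6 of 8 pairs, at 0.251 to 0.534 in CD4 cells, while CD8 replicates 3 and 4 had 0.027 and -0.04, and 12 of 16 libraries correlated best with their own number. These CD8 pairs each hold a library with B cell markers, CD8 CD5lo replicate 3 or CD8 CD5hi replicate 4, which correlated with each other at 0.426. Whether the B cell marker RNA lowered the values of these pairs was not tested. Across lineages, same-numbered libraries correlated at -0.028 to 0.704 and differently numbered ones at -0.499 to 0.386. The fit without a block was kept because not every same-numbered pair within a lineage passed 0.1. Whether the numbers pair samples is not settled. Leaving out 1 library gave 819 to 1132 higher, 487 to 890 lower, 274 to 352 and 206 to 310 of similar size, and 374 to 514 in the average alone. A size limit of 0.5 gave 557 higher and 451 lower, 0.8 gave 218 and 164, and the interval rule gave 7 and 2. The cause of these shifts was not tested, apart from the size rules, which change the set by construction.

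Of the 110 called genes selected, 103 kept their call in every one of 26 alternatives that gave them a value (Pdlim4 had no adjusted p in DESeq2), and 0 reversed. Calls lost were those of Tab1 (the additive fit, the 3 libraries, 11 single libraries), Itgae (11 alternatives), Lss (8 single libraries), Gpr153 (4), Dhcr7 (the 3 libraries), and Pgam1 and Cd8a (the additive fit). Uncalled values that changed sign were Cd4 at -0.333 (limma), -0.744 (the 3 libraries left out), -0.317 (replicate block by lineage) and -1.975 to 1.658 (1 library left out), Cd74 at -2.506 to 0.454 and Rel at -0.065 to 0.211 (1 left out), and Nfkbia at 0.014 and Nfkb2 at 0.019 (the 3 left out).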
